A study of Arabidopsis thaliana with 28 samples.

Results

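The genes described here are 23 Calvin cycle genes and 14 photorespiration genes, 37 of the 33557 Arabidopsis loci in the expression table. They were chosen by locus number from their known place in the pathways, with earlier results of these data known. The study followed etiolated Columbia (Col-0) seedlings of Arabidopsis thaliana through their first 12 h of light. After a brief exposure to white light for germination, seedlings grew for 3 days in darkness, and were then either collected or moved to simulated white light of 100 µmol of photons per square metre and second for 15 min, 30 min, 1 h, 3 h, 6 h or 12 h. Roots were cut off, and cotyledons with the shoot apical meristem were separated from hypocotyls, so that each tissue was measured at 7 times; tissue was taken into cold acetone, in the dark groups under green light. Every group held 2 biological replicates, named A and B, and the 28 libraries were made from polyadenylated RNA and are titled as strand-specific. All seedlings shared the wild-type genotype, and the dark libraries of a tissue served as the common reference for all its light times.

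The Calvin cycle fixes CO2 in the chloroplast: Rubisco joins it to ribulose bisphosphate, the product is reduced to triose phosphate, and a network of aldolase, phosphatase, transketolase and isomerase steps regenerates the acceptor. When Rubisco takes oxygen instead, photorespiration salvages the resulting phosphoglycolate through reactions shared between chloroplast, peroxisome and mitochondrion. An etiolated seedling lives on seed reserves, and its cotyledons hold plastids prepared for greening, while the hypocotyl is a growing stem.

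Levels are given as FPKM, a fragment count corrected for transcript length and library depth, so that genes can be compared per length. Changes are differences on the log2(FPKM + 1) scale with their standard error, and understate the change of genes at low levels. A gene was called when its adjusted p from limma was under 0.05 and its log2 change was at least 1 in size. Of the 37 members, 36 had a mean of at least 1 FPKM and were tested among 18678 genes. The exception was PGLP1 (AT5G36790), the phosphoglycolate phosphatase that opens photorespiration. It was listed at 0 in every library, as was its near-identical copy AT5G36700, and 98.9% of the 50-base stretches of PGLP1 occur in that copy, so these zeros cannot be read as absence of the transcript.

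Replicate libraries correlated at 0.984 to 0.993 across genes on the log2 scale, and all 28 libraries were closest to their own replicate. Sequencing depth, judged from the step size of low FPKM values, varied from 0.606 to 1.66 of the mean over libraries. In the median library 1 FPKM of a transcript of 1500 bases stood for about 18.8 reads. The plastid genome's own transcripts accounted for between 1.57% and 20.5% of all FPKM in a cotyledon library, and for between 0.0691% and 0.537% in a hypocotyl one. Tissue markers of the dissection did not all go one way. STM, a meristem regulator, had a mean of 10.003 FPKM in dark cotyledon libraries and 0.744 FPKM in dark hypocotyl libraries. The boundary gene CUC2 was at 1.94 FPKM in the former, and CUC2, WUS and CLV3 were listed at 0 in the latter. CUC1 did not differ by a call (-0.47 ± 0.27). BP, of the same meristem list, was called higher in dark hypocotyls, with 112 FPKM against 16.7 FPKM in dark cotyledons (2.68 ± 0.15). Of the root genes, PLT2, EXPA7 and EXPA18 were at 0 in all 28 libraries and PLT1 and COBL9 at or near 0. GL2, an epidermal regulator, had 10.3 FPKM in dark hypocotyls and 2.204 FPKM in dark cotyledons, and MYB36, an endodermis regulator, had 44.03 FPKM in dark hypocotyls and 0.439 FPKM in dark cotyledons. Greening proceeded in both tissues, with LHCB1.1, an antenna protein gene, at 10.2 FPKM in dark cotyledons and 5185 FPKM at 6 h, and at 0.209 and 241 FPKM in hypocotyls.

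In darkness, most of these genes were already abundant in cotyledons and scarce in hypocotyls. 21 of 23 Calvin cycle genes were lower in dark hypocotyls than in dark cotyledons and 1 was higher, against 21.2% and 23.4% of all genes tested. Among the 13 tested photorespiration genes limma called 11 lower and 0 higher. The remaining 2, GLYK (AT1G80380) and GLDP2 (AT2G26080), were higher in hypocotyls at an unadjusted p under 0.05, and both had higher levels in both dark hypocotyl libraries than in either cotyledon library. The median difference was -4.67 for the Calvin cycle and -3.78 for photorespiration on the log2 scale, with a median of 0 over all genes. As a ratio of mean FPKM, the median Calvin cycle gene stood 28.004-fold higher in cotyledons and the median photorespiration gene 14.3-fold. Summed over the 37 genes, the transcripts made up 3.297% and 4.15% of nuclear FPKM in the 2 dark cotyledon libraries and 0.143% and 0.143% in the hypocotyl libraries. In whole tissue, fewer cells with the transcript and less transcript per cell cannot be told apart.

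In light most of them were called higher than in darkness in both tissues by 12 h. At 15 min none was called in either tissue by limma, against 0.846% of all genes in cotyledons and 0.996% in hypocotyls. At an unadjusted p under 0.05, 1 Calvin cycle gene was higher in cotyledons and 4 in hypocotyls, and no photorespiration gene passed in either tissue. The share of all genes at an unadjusted p was not computed, so these and the other unadjusted counts cannot be set against a background. The authors' deposited table also called 0 of both groups at 15 min. In cotyledons the Calvin cycle genes called higher numbered 1 at 30 min, 5 at 1 h, 12 at 3 h, 18 at 6 h and 19 at 12 h. In hypocotyls the numbers were 2, 11, 19, 20 and 21 of 23. The share of all tested genes called higher at these 5 times was 1.7%, 6.56%, 13.1%, 16.9% and 15.1% in cotyledons, and 1.76%, 4.89%, 12.4%, 14.2% and 16.6% in hypocotyls. Photorespiration genes called higher numbered 1, 7, 10, 12 and 13 of 13 in cotyledons, and 0, 7, 11, 12 and 11 in hypocotyls. Only 2 members were called lower against darkness at any time, GLYK at 1 h and 3 h and TKL2 (AT2G45290) at 12 h, both in hypocotyls, where 3.37%, 8.82% and 14.2% of all genes were called lower at those times.

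The size of the rise differed between the tissues. At 6 h the median change was 1.78 in cotyledons and 3.96 in hypocotyls for the Calvin cycle, and 2.12 and 3.93 for photorespiration, while the median over all genes was 0.033 and 0.012. In FPKM these medians corresponded to 3.45-fold and 17.2-fold for the Calvin cycle and to 4.35-fold and 16.1-fold for photorespiration. The cotyledon counts depended on the scaling. When organelle genes were left out and the nuclear genes rescaled, the median of all genes in the 6 h cotyledon change moved by -0.52 and that of the dark tissue difference by -0.216, 12 Calvin cycle genes were called higher there, and 20 in hypocotyls. With quantile normalization the numbers were 11 and 21. For photorespiration in cotyledons, quantile normalization gave 3 of 13 at 1 h, 6 at 3 h, 9 at 6 h and 8 at 12 h, and the rescaling 8 at 6 h and 8 at 12 h. For the Calvin cycle at 12 h in cotyledons the counts were 13 and 15 of 23.

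**Figure D1:**
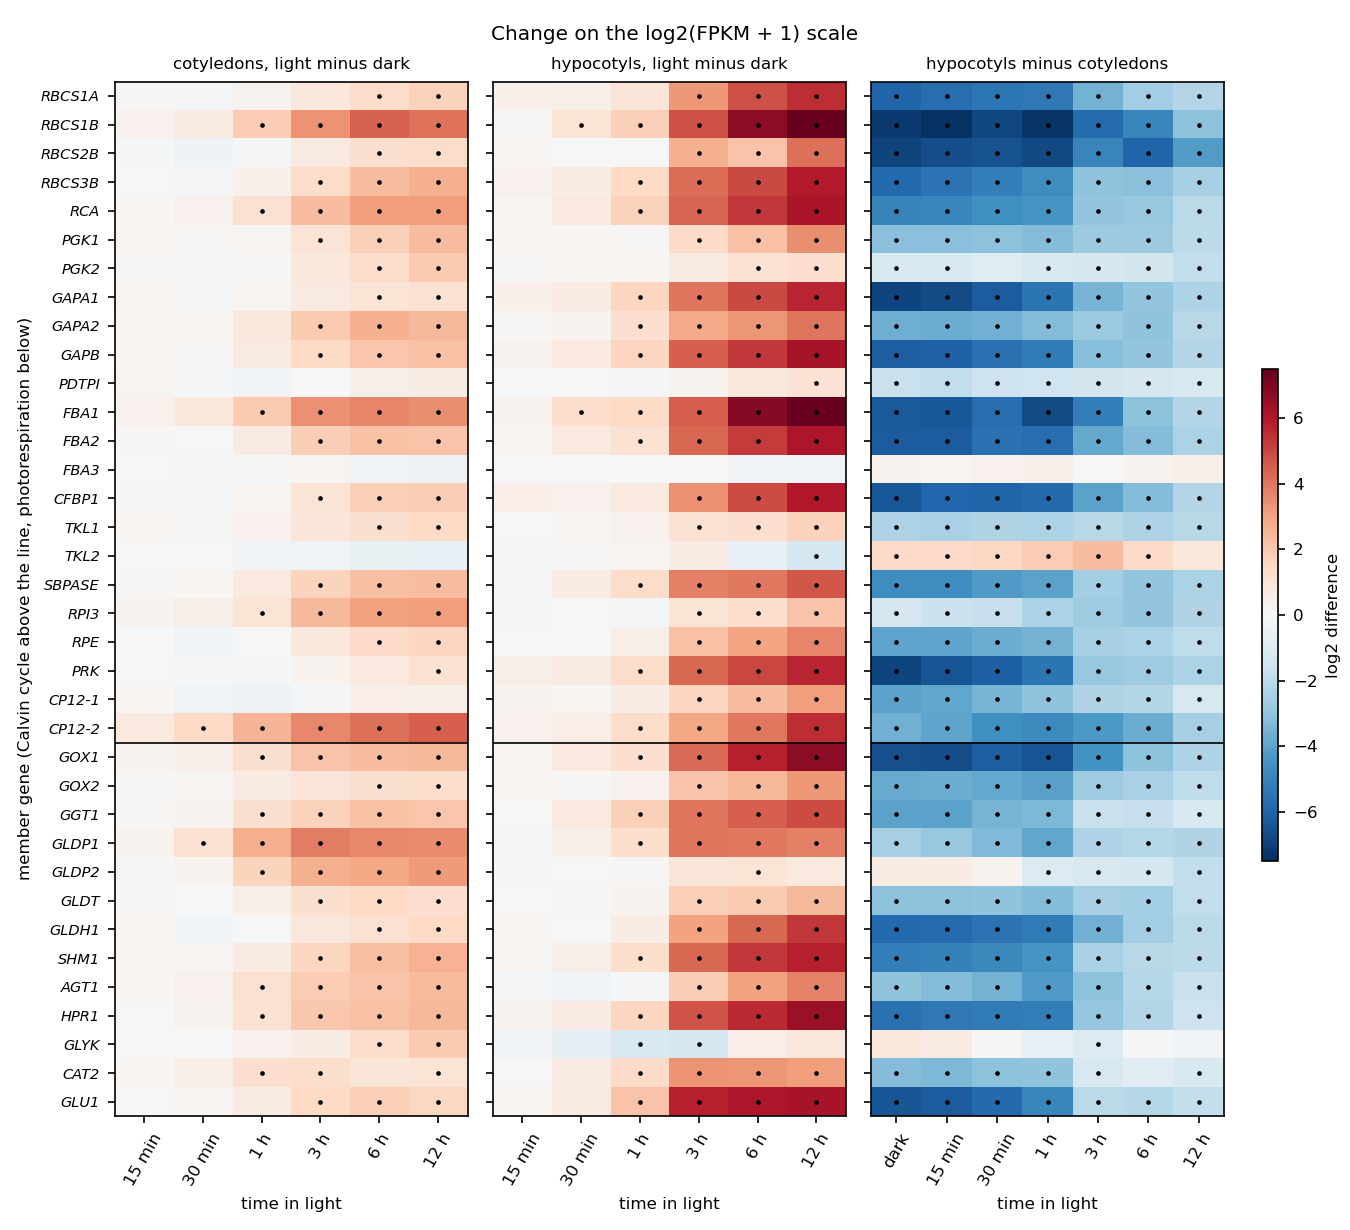
Difference on the log2(FPKM + 1) scale for the 36 tested members (rows) at each time in light (columns), as the change from darkness in cotyledons (left) and in hypocotyls (middle) and as the hypocotyl level minus the cotyledon level (right). Red is higher, blue is lower, and a dot marks a call. Rows darken towards 12 h in hypocotyls, FBA3 stays pale in all 3 panels, and the blue of the right panel fades from 3 h on.

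Rubisco itself is built from a plastid-encoded large subunit and small subunits from the 4 nuclear RBCS genes. RBCS1A (AT1G67090) lies on chromosome 1, and RBCS1B (AT5G38430), RBCS2B (AT5G38420) and RBCS3B (AT5G38410) follow each other within chr5:15376988-15385320 on the minus strand (TAIR10.1). RBCS1A was the most abundant in every group: libraries A and B held 7609 and 10845 FPKM in dark cotyledons, 22792 and 25231 FPKM at 6 h and 29369.8 and 31800.5 FPKM at 12 h. In hypocotyls RBCS1A stood at 136 and 147 FPKM in darkness, 3821 and 3966 FPKM at 6 h and 7011 and 6315 FPKM at 12 h. The 6 h and 12 h libraries lay above the dark ones in both tissues, and the log2 change at 6 h was 1.40 ± 0.15 in cotyledons (adjusted p = 1.03e-07) and 4.77 ± 0.15 in hypocotyls (adjusted p = 5.1e-16). The cotyledon change was 0.83 after the rescaling without organelle genes and 0.30 after quantile normalization, both short of a call. The authors' deposited table gave 1.31, also without a call.

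RBCS1B started lowest and rose most. It was measured at 207 and 379 FPKM in dark cotyledons and 5976 and 6211 FPKM at 6 h, a log2 change of 4.44 ± 0.25 (adjusted p = 4.7e-11). In hypocotyls it went from 0.703 and 1.21 FPKM in darkness through 3.25 and 2.59 FPKM at 30 min to 212 and 195 FPKM at 6 h and 560.2 and 579.9 FPKM at 12 h. It was already called higher at 30 min there (1.01 ± 0.25, adjusted p = 0.0117), at a few FPKM, and reached 595-fold of its dark mean at 12 h. The 30 min call was lost with 5 FPKM added (0.41), with the chromosome 5 copies summed (0.41), without dark library A (0.82) or 30 min library A (0.89), and in the authors' deposited table (1.62). RBCS3B stood next to RBCS1A in level from 3 h on in cotyledons and in hypocotyls from darkness on, but below RBCS2B in dark cotyledons. It was at 1947 and 2591 FPKM in dark cotyledons and 11159.6 and 11256 FPKM at 6 h, and at 36.1 and 42.8 FPKM in darkness and 1316 and 1213 FPKM at 6 h in hypocotyls. Its log2 change at 6 h was 2.32 ± 0.18 in cotyledons and 4.97 ± 0.18 in hypocotyls.

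RBCS2B responded least of the family in hypocotyls. Libraries A and B held 23.8 and 31.4 FPKM in darkness, 23.2 and 32.8 FPKM at 1 h, 178 and 176 FPKM at 3 h, 126 and 121 FPKM at 6 h and 479.9 and 501 FPKM at 12 h. Both 6 h libraries were below both 3 h libraries, a dip that RBCS1A, RBCS1B and RBCS3B did not show. In cotyledons RBCS2B went from 3100.5 and 3893 FPKM in darkness to 7912 and 8207 FPKM at 6 h. Its change at 6 h was 2.14 ± 0.18 in hypocotyls and 1.21 ± 0.18 in cotyledons, a difference of 0.92 ± 0.25 that fell short of a call. That difference was called without dark cotyledon library A (1.09) and without dark hypocotyl library B (1.11), and with upper quartile scaling (1.05), quantile normalization (1.51) or the rescaling without organelle genes (1.64).

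With these unequal rises the make-up of the RBCS pool changed. RBCS1B made up 1.61% and 2.14% of the summed RBCS FPKM in the dark cotyledon libraries and 12.5% and 12.2% at 6 h. RBCS2B fell from 12.1% and 14.1% of the pool in dark hypocotyls to 2.31% and 2.198% at 6 h, while RBCS1A made up 69.2% and 66.1% in darkness and 69.8% and 72.2% at 6 h. The dark and 6 h values did not overlap for RBCS1B in cotyledons or RBCS2B in hypocotyls. The 3 genes on chromosome 5 share 12.0% to 16.9% of their 50-base stretches with each other, so part of their reads could have been assigned to a neighbour. Together the RBCS genes took 1.79% and 2.44% of nuclear FPKM in dark cotyledons and 5.09% and 5.81% at 12 h, and 0.0231% and 0.0262% in dark hypocotyls and 1.38% and 1.21% at 12 h.

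**Figure D2:**
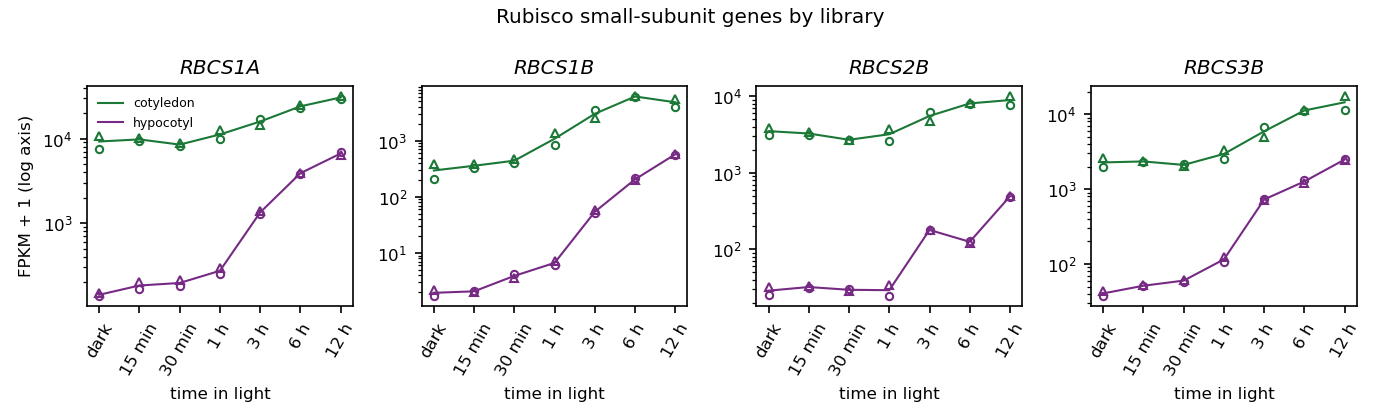
FPKM + 1 (log axis, own range in each panel) of the 4 RBCS genes against time in light, for cotyledons (green) and hypocotyls (purple). Circles are library A, triangles are library B, and lines join the means of 2 libraries. The gap between the tissues narrows for each gene, least for RBCS2B, and RBCS2B dips at 6 h in hypocotyls.

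The promoters of the family members with the largest and the smallest hypocotyl response are shown for comparison. The windows hold the 250 bases before the annotated start of the gene in TAIR10.1, read 5′ to 3′ on the minus strand, at chr5:15385321-15385570 for RBCS1B and chr5:15382072-15382321 for RBCS2B. Capitals mark the G-box CACGTG, bound by bZIP and bHLH factors, and the I-box GATAAG, searched on both strands (its reverse complement is CTTATC). The letters do not overlap each other's motif.
RBCS1B: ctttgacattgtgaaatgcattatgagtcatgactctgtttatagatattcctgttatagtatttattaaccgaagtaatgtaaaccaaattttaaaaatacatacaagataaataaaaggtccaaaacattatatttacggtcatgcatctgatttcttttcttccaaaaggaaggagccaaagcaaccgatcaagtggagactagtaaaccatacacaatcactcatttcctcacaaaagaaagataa
RBCS2B: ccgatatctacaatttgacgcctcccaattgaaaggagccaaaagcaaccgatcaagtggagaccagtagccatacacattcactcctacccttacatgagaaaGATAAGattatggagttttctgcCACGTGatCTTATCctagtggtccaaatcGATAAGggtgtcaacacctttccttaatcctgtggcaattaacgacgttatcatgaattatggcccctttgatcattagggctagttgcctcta
In the RBCS2B window, 1 G-box begins 123 bases and 3 I-box matches begin 146, 115 and 94 bases before the start, while the RBCS1B window holds neither motif. The windows are offset against each other: the end of the RBCS1B window resembles the RBCS2B stretch that runs into the I-box at 146 bases. Sequence past the annotated start of RBCS1B was not searched, so whether it holds these motifs there was not tested. Across the 37 members, 16.2% of windows (6) held a G-box and 13.5% (5) an I-box, against 6.57% and 12.2% of 26686 protein-coding genes. Among the 17905 coding genes tested the shares were 7.43% and 12.6%. The 6 G-box windows were those of RBCS2B, CFBP1, PRK, GGT1, GLDP1 and TKL2. TKL2 was called lower at 12 h in hypocotyls, and its window overlaps the neighbouring gene AT2G45280. The shorter letters ACGT, also searched, stood in 37.8% of member windows against 44.2% of all coding genes. Both motifs stood together in 2 member windows, those of RBCS2B and CFBP1 (AT3G54050). These matches are letters only, and factor binding was not measured.

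RCA (AT2G39730), Rubisco activase, which frees the enzyme of inhibitory sugar phosphates, rose in both tissues. It was at 779 and 966 FPKM in dark cotyledons and 7821 and 7659.7 FPKM at 6 h, and at 24.9 and 27.9 FPKM in darkness and 1130.3 and 1047 FPKM at 6 h in hypocotyls. The log2 changes were 3.16 ± 0.16 and 5.32 ± 0.16, and RCA was called higher from 1 h on in both tissues. At 12 h cotyledon library A held 6306 FPKM and library B 9301 FPKM. This spread was shared by the other members: all 36 were higher in library B than in library A at 12 h in cotyledons, by a median of 0.52 on the log2 scale, against 0.0228 over all genes. Chloroplast genes took 6.33% of summed FPKM in library A and 1.57% in library B, and their part in the spread was not tested. Without library A, 19 Calvin cycle genes were called higher at 12 h in cotyledons, and without library B 17. Likewise 34 of 36 members were higher in library B at 1 h and none at 3 h. In dark cotyledons, the reference for every cotyledon change, 31 of 36 were higher in library B. Their median difference there was 0.204, against 0.00137 over all genes. Chloroplast genes took 6.78% of summed FPKM in dark cotyledon library A and 9.59% in B, 20.5% and 4.23% at 1 h, and 5.94% and 8.01% at 3 h. In darkness the library with the larger chloroplast share thus held the higher members, unlike at 1 h, 3 h and 12 h.

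The reduction phase uses phosphoglycerate kinase, from PGK1 (AT3G12780) and PGK2 (AT1G56190), and the NADP-dependent glyceraldehyde-phosphate dehydrogenase, from GAPA1 (AT3G26650), GAPA2 (AT1G12900) and GAPB (AT1G42970). All 5 genes were called higher at 6 h in both tissues. GAPA1 was among the members with the largest tissue difference: it was at 1116 and 1185 FPKM in dark cotyledons and 2380.4 and 2259.8 FPKM at 6 h, but at 8.38 and 9.06 FPKM in darkness and 308 and 280.2 FPKM at 6 h in hypocotyls. The hypocotyl change of 4.92 ± 0.16 exceeded the cotyledon change of 1.01 ± 0.16 by 3.91 ± 0.22 (adjusted p = 1.04e-11). Its cotyledon call at 6 h was lost without dark library A (0.97) or 6 h library A (0.97), with upper quartile scaling (0.91), quantile normalization (0.14) or the rescaling without organelle genes (0.44), and in the authors' deposited table (0.95). GAPB rose by 2.08 ± 0.19 and 5.30 ± 0.19 in cotyledons and hypocotyls, GAPA2 by 2.65 ± 0.12 and 3.32 ± 0.12, PGK1 by 1.79 ± 0.15 and 2.21 ± 0.15, and PGK2 by 1.36 ± 0.17 and 1.11 ± 0.17. PGK2 was thus the weakest of the 5 in hypocotyls, and its tissue difference at 6 h of -0.25 ± 0.24 was not called.

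Of the regeneration genes, FBA1 (AT2G21330) and FBA2 (AT4G38970) encode the main chloroplast aldolases and FBA3 (AT2G01140) a plastid aldolase. FBA1 showed the largest hypocotyl rise of all members at 6 h, from 0.3597 and 0.483 FPKM in darkness to 169.5 and 152 FPKM, a log2 change of 6.83 ± 0.17 (adjusted p = 2.02e-17). It was called at 30 min there (1.34 ± 0.17), at 2.65 and 2.54 FPKM, and not when 5 FPKM were added (0.49). In cotyledons FBA1 went from 99.1 and 119 to 1402 and 1334 FPKM, a change of 3.64 ± 0.17. FBA3 did not share this course and was called in no comparison. It stood at 89.7 and 79.8 FPKM in dark cotyledons and 70.01 and 71.3 FPKM at 6 h, and at 100.1 and 101 FPKM in darkness and 83.6 and 88.5 FPKM at 6 h in hypocotyls, with changes of -0.26 ± 0.09 and -0.22 ± 0.09. In dark hypocotyls FBA3 therefore supplied 93.7% of the summed FBA FPKM, and at 12 h 10.2%.

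The transketolase genes also parted. TKL1 (AT3G60750) rose by 1.20 ± 0.14 in cotyledons and 1.24 ± 0.14 in hypocotyls at 6 h. TKL2 was the only member called higher in dark hypocotyls than in dark cotyledons, with 19.1 and 19.01 FPKM against 6.34 and 6.37 FPKM and a difference of 1.45 ± 0.13 (adjusted p = 1.67e-09). In hypocotyls it stood at 29.3 and 28.1 FPKM at 3 h, 12.3 and 12.3 FPKM at 6 h and 8.202 and 6.19 FPKM at 12 h. Both 12 h libraries were below both dark libraries, and the log2 value fell by 1.30 ± 0.13 (adjusted p = 1.4e-08). With a pseudocount of 5 FPKM the change was -0.99, short of a call. The cotyledon change at 6 h was -0.55 ± 0.13, which was not called, and -1.02 with a call after the rescaling without organelle genes.

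CFBP1 and SBPASE (AT3G55800), the phosphatases for fructose and sedoheptulose bisphosphate, rose by 1.78 ± 0.22 and 2.23 ± 0.15 in cotyledons and by 4.90 ± 0.22 and 3.97 ± 0.15 in hypocotyls at 6 h. CFBP1 had 0.565 and 1.59 FPKM in the dark hypocotyl libraries and 62.7 and 55.8 FPKM at 6 h. Its window at chr3:20016587-20016836 on the plus strand is shown because it was the other one with both motifs.
CFBP1: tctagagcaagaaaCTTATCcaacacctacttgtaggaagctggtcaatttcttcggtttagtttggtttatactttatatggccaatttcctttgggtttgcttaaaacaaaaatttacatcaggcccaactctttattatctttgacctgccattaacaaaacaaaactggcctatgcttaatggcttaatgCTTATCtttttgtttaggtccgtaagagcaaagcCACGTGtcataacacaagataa
The G-box of this window begins 22 bases before the annotated start, and its I-box matches begin 236 and 56 bases before it.

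PRK (AT1G32060), phosphoribulokinase, which makes the Rubisco substrate, showed one of the widest gaps between tissues. Dark cotyledons held 703 and 781 FPKM and dark hypocotyls 5.47 and 4.88 FPKM. At 6 h the values were 1257 and 1225 FPKM and 203 and 188 FPKM. The log2 change was 4.99 ± 0.13 in hypocotyls and 0.74 ± 0.13 in cotyledons, where PRK was first called at 12 h (1.13 ± 0.13). That call was lost without 12 h library B (0.90), with quantile normalization (0.40) and with the rescaling without organelle genes (0.56). The difference between the tissue changes at 6 h was 4.25 ± 0.19 (adjusted p = 3.62e-13).

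RPI3 (AT3G04790), a ribose-phosphate isomerase, went the other way and rose more in cotyledons. It was at 36.01 and 41.3 FPKM in dark cotyledons and 327 and 322 FPKM at 6 h, and at 15.2 and 15.5 FPKM in darkness and 42.01 and 39.02 FPKM at 6 h in hypocotyls. The changes were 3.04 ± 0.12 and 1.34 ± 0.12, and they differed by -1.70 ± 0.17 (adjusted p = 4.91e-08). After the rescaling without organelle genes the difference was -0.99, just short of a call. Part of the RPI3 sequence, 19.7% of its 50-base stretches, also lies in the overlapping locus AT3G01505. RPE (AT5G61410), ribulose-phosphate epimerase, rose by 1.42 ± 0.14 in cotyledons and 2.98 ± 0.14 in hypocotyls. PDTPI (AT2G21170), plastid triose-phosphate isomerase, moved little: it was at 298 and 337 FPKM in dark cotyledons and 434 and 424 FPKM at 6 h, and at 98.9 and 99.4 FPKM in darkness and 177 and 177 FPKM at 6 h in hypocotyls. Its changes of 0.43 ± 0.14 and 0.83 ± 0.14 were not called, and its single call against darkness was at 12 h in hypocotyls (1.07 ± 0.14).

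CP12 is a small protein that binds GAPDH and PRK in darkness and holds them inactive. CP12-1 (AT2G47400) was abundant in dark cotyledons, at 1584 and 1898 FPKM, with 1224 and 1416 FPKM at 1 h and 2429 and 2455 FPKM at 6 h, and was called at no light time there. CP12-2 (AT3G62410) rose steadily in the same libraries, from 61.99 and 78.4 FPKM in darkness to 182 and 223 FPKM at 30 min, 345 and 511 FPKM at 1 h and 1234 and 1231 FPKM at 6 h. It was the only Calvin cycle gene called in cotyledons at 30 min (1.52 ± 0.19, adjusted p = 5.22e-06), and its change at 6 h was 4.12 ± 0.19. Its share of the summed CP12 FPKM went from 3.87% to 41.1% in cotyledons at 12 h and from 4.38% to 22.1% in hypocotyls. In hypocotyls both genes rose, CP12-1 from 104 and 112 to 499 and 577 FPKM at 6 h and CP12-2 from 4.63 and 5.25 to 89.3 and 93.4 FPKM. At 1 h CP12-2 had risen less in hypocotyls than in cotyledons, by -1.20 ± 0.26 (adjusted p = 0.00176).

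Among the photorespiration genes, GOX1 (AT3G14420) and GOX2 (AT3G14415) encode glycolate oxidase of the peroxisome and CAT2 (AT4G35090) the catalase that removes its hydrogen peroxide. GOX1 went from 1.51 and 2.46 FPKM in dark hypocotyls to 169 and 164 FPKM at 6 h, and from 253 and 311 to 1420.1 and 1421 FPKM in cotyledons. The changes of 5.83 ± 0.17 and 2.33 ± 0.17 differed by 3.49 ± 0.24 (adjusted p = 1.8e-10). GOX2, its neighbour on chromosome 3, rose by 2.51 ± 0.12 and 1.19 ± 0.12. CAT2 had its highest mean at 3 h in both tissues, at 1134 and 929 FPKM in cotyledons and 468 and 440.2 FPKM in hypocotyls. These values overlapped those of a neighbouring time, 946 and 1043 FPKM at 1 h in cotyledons and 443.5 and 436 FPKM at 6 h in hypocotyls. In darkness it was at 392 and 442 FPKM in cotyledons and 45.6 and 41.1 FPKM in hypocotyls. At 6 h its cotyledon change of 0.90 ± 0.13 was not called. At 12 h it was called again just over the limit (1.03 ± 0.13), at 726 and 1003 FPKM.

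The glutamate:glyoxylate aminotransferase gene GGT1 (AT1G23310) and the serine:glyoxylate aminotransferase gene AGT1 (AT2G13360) rose by 2.22 ± 0.12 and 2.12 ± 0.30 in cotyledons and by 4.50 ± 0.12 and 3.01 ± 0.30 in hypocotyls. AGT1 had the widest relative spread between replicates of all tested members at 15 min in hypocotyls, with 49.1 and 17.3 FPKM. HPR1 (AT1G68010), the peroxisomal hydroxypyruvate reductase, was measured at 2.504 and 3.93 FPKM in dark hypocotyls and 206 and 190.1 FPKM at 6 h, and at 214 and 189 FPKM in darkness and 939 and 897 FPKM at 6 h in cotyledons. Its changes were 5.58 ± 0.16 and 2.18 ± 0.16. GLU1 (AT5G04140), the ferredoxin-dependent glutamate synthase that reassimilates the released ammonia, had a tissue difference at 6 h within 1 standard error of that of PRK. It went from 0.5496 and 1.22 to 111 and 99.98 FPKM within 3 h in hypocotyls and was at 131 and 115 FPKM at 6 h, while cotyledons went from 131 and 184 to 559.5 and 533 FPKM at 6 h. The changes of 6.06 ± 0.22 and 1.81 ± 0.22 differed by 4.25 ± 0.31 (adjusted p = 6.48e-10). With 5 FPKM added the difference was 2.66 for GLU1 and 3.56 for PRK.

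Mitochondrial glycine decarboxylase needs P, T and H proteins and works with the serine hydroxymethyltransferase SHM1 (AT4G37930). GLDT (AT1G11860), GLDH1 (AT2G35370) and SHM1 rose by 1.51 ± 0.14, 1.12 ± 0.17 and 2.25 ± 0.14 in cotyledons and by 1.99 ± 0.14, 4.30 ± 0.17 and 5.31 ± 0.14 in hypocotyls. The P-protein genes GLDP1 (AT4G33010) and GLDP2 responded unlike each other. GLDP1 was the only photorespiration gene called in cotyledons at 30 min (1.17 ± 0.24, adjusted p = 0.00226), a call lost without dark library A (0.92). It went from 82.6 and 117 FPKM in darkness to 1195 and 1186 FPKM at 6 h in cotyledons and from 17.3 and 16.2 to 289 and 252 FPKM in hypocotyls, with changes of 3.58 ± 0.24 and 3.93 ± 0.24. These did not differ by a call (0.35 ± 0.34).

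GLDP2 was at 34.96 and 38.8 FPKM in dark cotyledons and 55.6 and 54.6 FPKM in dark hypocotyls, where both libraries were higher than both cotyledon libraries without reaching a call (0.57 ± 0.17). At 6 h cotyledons held 283 and 281 FPKM and hypocotyls 119 and 109 FPKM, and at 12 h 269 and 431 FPKM and 105 and 81.9 FPKM. The order of the tissues had thus reversed, and the 12 h difference was -1.87 ± 0.17 (adjusted p = 4.31e-09). The cotyledon change of 2.90 ± 0.17 exceeded the hypocotyl change of 1.04 ± 0.17, and their difference of -1.87 ± 0.24 was called (adjusted p = 1e-06). The hypocotyl call at 6 h was lost without 6 h library A (0.97) and with a pseudocount of 5 FPKM (0.99). The windows before the 2 genes are shown side by side, GLDP1 at chr4:15931423-15931672 and GLDP2 at chr2:11114292-11114541, both on the minus strand.
GLDP1: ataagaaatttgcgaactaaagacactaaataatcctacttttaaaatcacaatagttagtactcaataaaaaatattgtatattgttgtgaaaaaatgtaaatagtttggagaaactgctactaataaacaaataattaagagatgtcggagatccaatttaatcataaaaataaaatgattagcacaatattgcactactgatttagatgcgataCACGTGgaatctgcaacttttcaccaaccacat
GLDP2: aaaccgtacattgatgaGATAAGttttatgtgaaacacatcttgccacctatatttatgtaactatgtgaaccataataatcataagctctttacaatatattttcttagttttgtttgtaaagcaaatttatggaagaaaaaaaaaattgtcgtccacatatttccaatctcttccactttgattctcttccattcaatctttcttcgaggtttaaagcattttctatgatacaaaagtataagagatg
The GLDP1 window holds a G-box that begins 33 bases before the start, and the GLDP2 window holds no G-box and 1 I-box that begins 233 bases before it.

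GLYK, glycerate kinase, returns the carbon to the Calvin cycle, and was the only photorespiration gene called lower than in darkness. In hypocotyls it was at 124 and 100.3 FPKM in darkness, 61.02 and 74.1 FPKM at 30 min, 54.998 and 46.2 FPKM at 1 h, 42.99 and 47.2 FPKM at 3 h, 142 and 171 FPKM at 6 h and 205 and 202 FPKM at 12 h. Both libraries at 30 min, 1 h and 3 h were below both dark libraries, both libraries at 6 h were above them, and the log2 value fell by 1.13 ± 0.18 at 1 h (adjusted p = 4.82e-05) and by 1.29 ± 0.18 at 3 h (adjusted p = 3.44e-06). The 1 h call was lost without dark library A (-0.98). Cotyledon levels went one way only, from 60.4 and 62.6 FPKM in darkness over 97.3 and 85.4 FPKM at 3 h to 167 and 159 FPKM at 6 h (1.39 ± 0.18). At 3 h the tissue changes differed by -1.85 ± 0.25 (adjusted p = 3.53e-06). This gene is known to be transcribed from alternative start sites under phytochrome control, and gene-level FPKM do not separate the resulting isoforms.

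**Figure D3:**
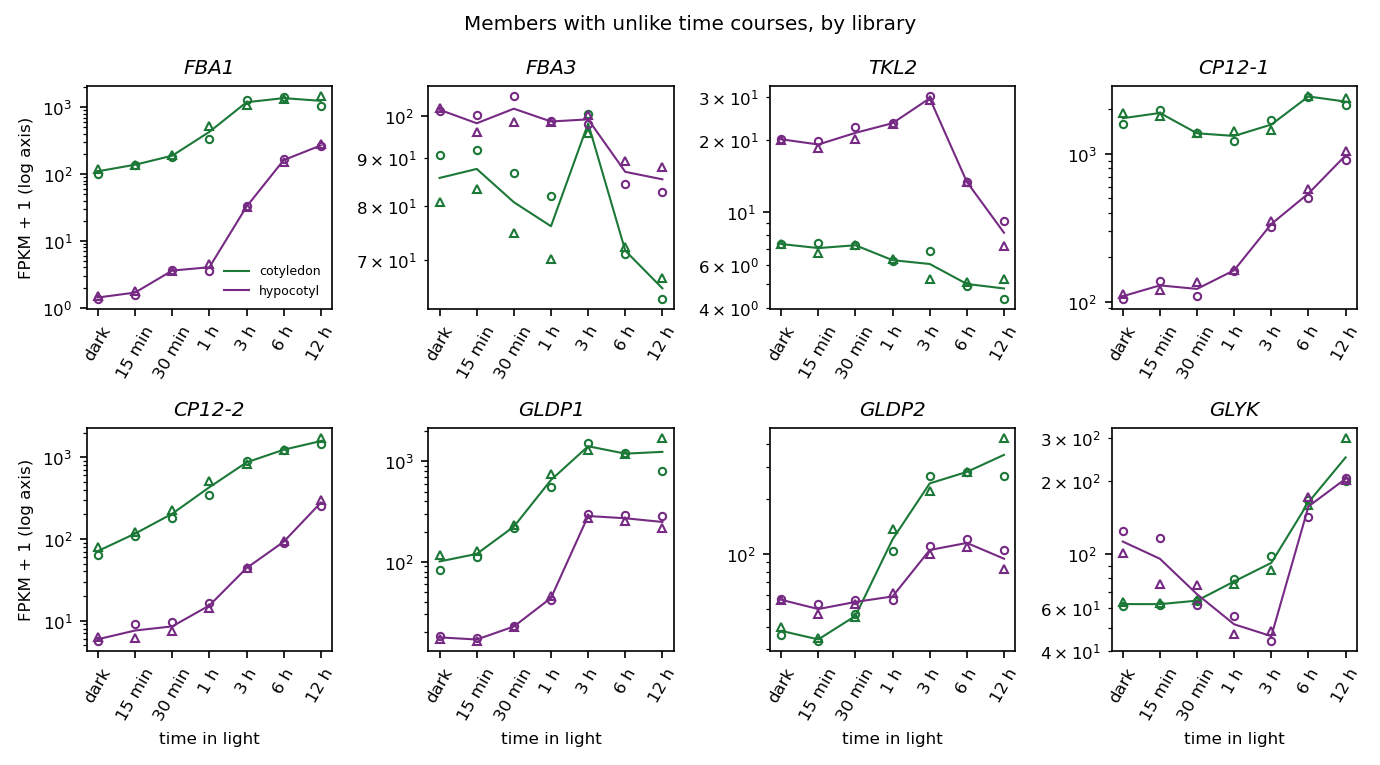
FPKM + 1 (log axis, own range in each panel) of 8 members with unlike courses against time in light, for cotyledons (green) and hypocotyls (purple). Circles are library A, triangles are library B, and lines join the means of 2 libraries. FBA1 rises and FBA3 stays within a narrow range, TKL2 peaks at 3 h in hypocotyls, GLDP2 lines cross, and GLYK dips at 1 h and 3 h in hypocotyls.

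Testing the tissue changes against each other, the Calvin cycle genes that rose more in hypocotyls numbered 3 at 1 h, 14 at 3 h, 13 at 6 h and 17 at 12 h of 23, and those that rose less 2, 1, 1 and 0. For photorespiration the numbers were 1, 8, 8 and 10 of 13 with a larger and 4, 2, 1 and 2 with a smaller change in hypocotyls. At 1 h 4.86% of all genes had a larger and 5.04% a smaller change in hypocotyls. At 3 h, 6 h and 12 h, 15.5%, 17.8% and 16.5% of all genes had a larger and 13.5%, 19.1% and 17.3% a smaller change in hypocotyls. At 1 h GLDP1 (-1.40 ± 0.34), GLDP2 (-1.60 ± 0.24), RPI3 (-1.11 ± 0.17), AGT1 (-1.20 ± 0.43), GLYK (-1.44 ± 0.25) and CP12-2 had changed less upwards in hypocotyls, and RBCS3B (1.13 ± 0.25), PRK (1.46 ± 0.19), GAPA1 (1.41 ± 0.22) and GLU1 (1.53 ± 0.31) had risen more. The AGT1 call was lost with the replicate block, at an unchanged -1.20, with 3 of 3 scalings and when any 1 of 7 of its 8 libraries was left out. RPI3 was not called without organelle genes (-0.96), without 1 h cotyledon library B (-0.96) or without 1 h hypocotyl library A (-0.97). CP12-2 was not called without 1 h cotyledon library B (-0.92). RBCS3B was not called without dark cotyledon library B (0.93) or 1 h cotyledon library A (0.93), and GLU1 was not with 5 FPKM added (0.46). All these contrasts use the same dark libraries of a tissue.

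The gap between the tissues narrowed but did not close. At 12 h 21 of 23 Calvin cycle genes and 12 of 13 photorespiration genes were still lower in hypocotyls, against 18.4% of all genes, and none was called higher by limma, against 16.8%. At an unadjusted p under 0.05, a limit without a computed share of all genes, 2 Calvin cycle genes and 0 photorespiration genes were higher. The median difference was -2.20 and -1.86, and the median ratio of cotyledon to hypocotyl mean FPKM was 4.66 and 3.72. The ratios also became more alike between genes. In darkness 14 of 36 members were over 50-fold higher in cotyledons and 5 lay between 2-fold and 6-fold. At 12 h 0 members were over 50-fold and 31 lay between 2-fold and 6-fold. The standard deviation of the log2 ratio across members went from 2.65 to 0.885. These ratios use FPKM without a pseudocount, and some dark ones rest on hypocotyl values near 0, such as FBA1 at 0.360 and 0.483 FPKM. The same bands were not counted over all genes. RBCS2B kept the widest gap at 12 h, at 18.2-fold, and RBCS1B was next at 8.42-fold. The summed transcripts of the 37 genes reached 8.64% and 10.5% of nuclear FPKM in cotyledons and 2.89% and 2.63% in hypocotyls.

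**Figure D4:**
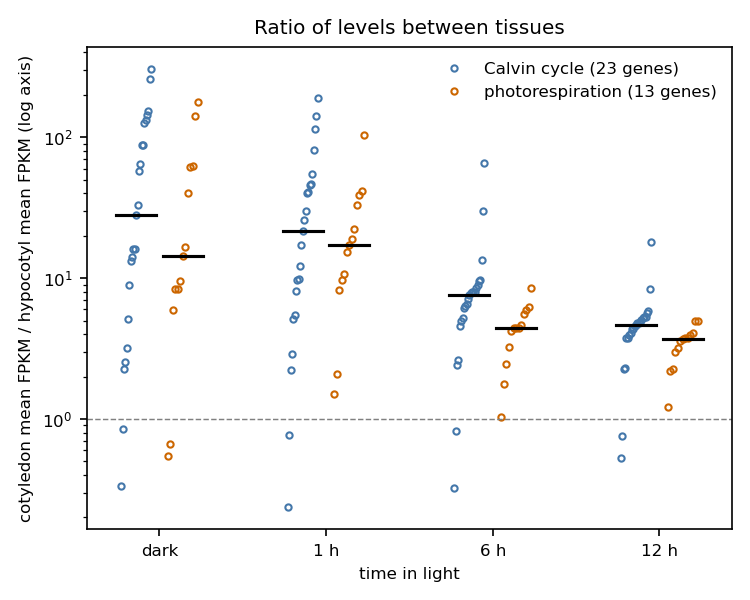
Mean FPKM in cotyledons divided by mean FPKM in hypocotyls (log axis) for each of 23 Calvin cycle genes (blue) and 13 photorespiration genes (orange) in darkness and at 1 h, 6 h and 12 h of light, sorted within each time. Black bars are medians, which go from 28.004 to 4.66 for the Calvin cycle, and the dashed line marks equal levels.

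Within gene families, the hypocotyl pool came to resemble the cotyledon pool. In dark hypocotyls GAPA2 made up 65.2% of the summed GAP FPKM and GAPA1 22.3%, while in dark cotyledons the values were 17.6% and 59.99%. At 12 h hypocotyls had 31.01% GAPA2 and 38.2% GAPA1, and cotyledons 28.6% and 40.7%. GLDP2 supplied 76.7% of GLDP FPKM in dark hypocotyls and 27.4% at 12 h, against 27.3% and 22.8% in cotyledons. GOX2 went from 92.8% to 45.2% of GOX FPKM in hypocotyls and from 56.6% to 38.2% in cotyledons. The percentage of a pool that would have to be exchanged to match the other tissue fell between darkness and 12 h from 82.2% to 8.44% for FBA, from 49.4% to 4.55% for GLDP, from 47.6% to 2.48% for GAP, from 36.2% to 6.98% for GOX, from 31.1% to 0.940% for PGK and from 15.6% to 1.96% for TKL. It did not fall for RBCS (11.4% and 12.9%) or CP12 (0.512% and 18.97%). These shares are descriptions without a test.

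**Figure D5:**
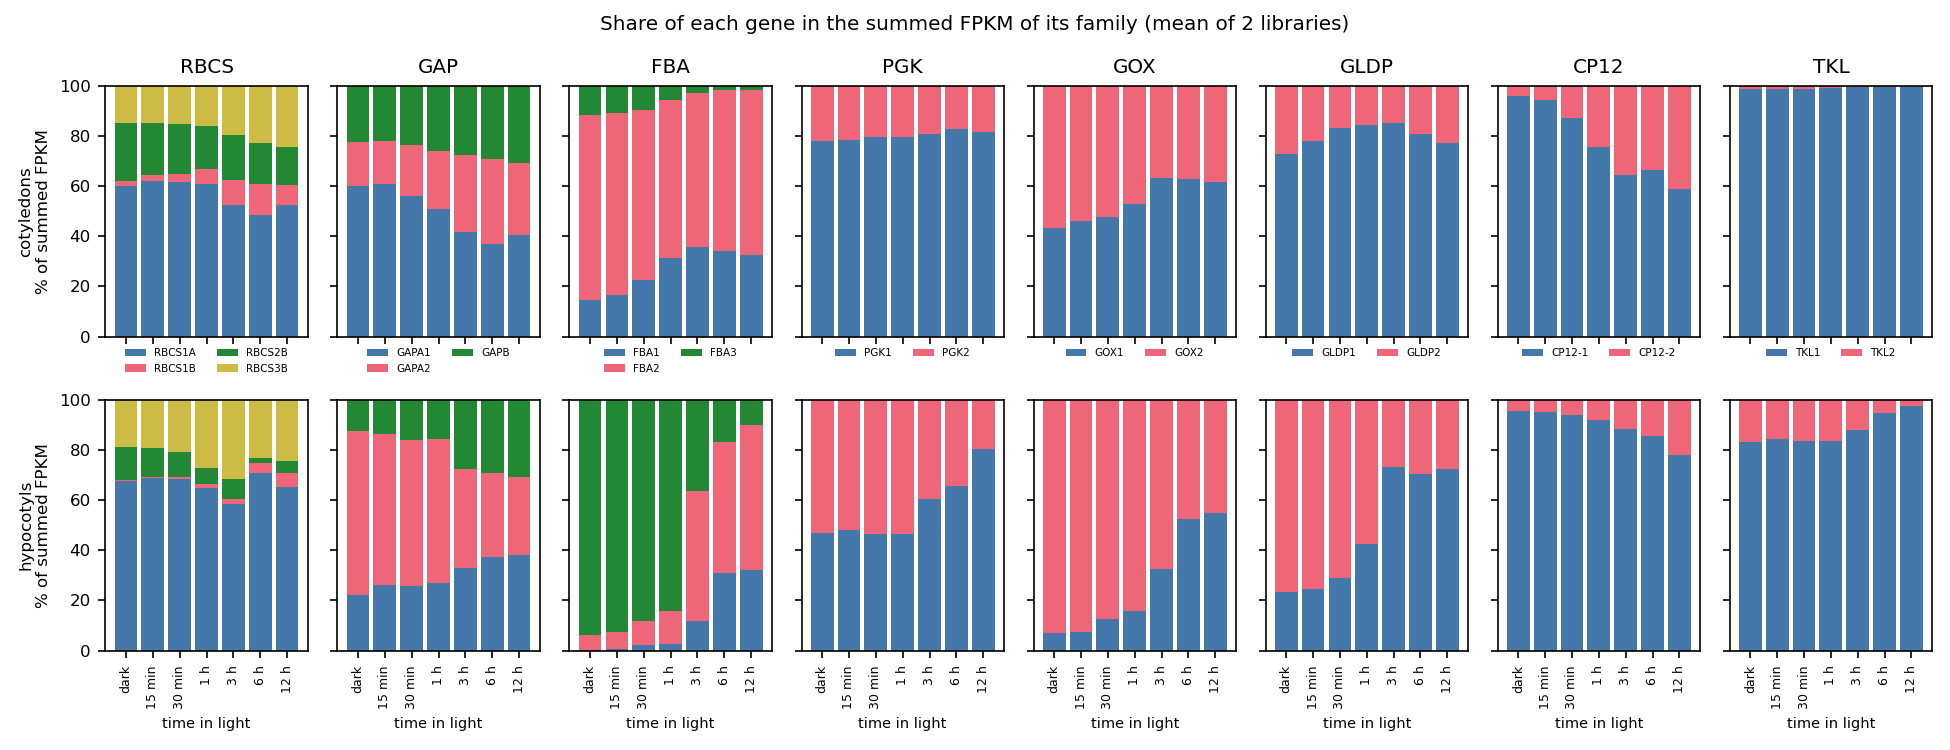
Share of each gene in the summed FPKM of its family (mean of 2 libraries, percent) at 7 times, for cotyledons (top) and hypocotyls (bottom). The upper and lower bars of FBA, GAP, GOX and GLDP differ in darkness and are alike at 12 h, whereas the upper and lower bars of CP12 move apart.

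In cotyledons, limma called 0 of 23 Calvin cycle and 0 of 13 photorespiration genes between 6 h and 12 h. Of all genes 3.62% were called in either direction. At that share few calls would be expected among the members, so 0 does not show that their levels had stopped changing. At an unadjusted p under 0.05, 4 and 3 were higher and none lower. In hypocotyls 5 Calvin cycle genes still rose over this interval, against 1.75% of all genes. They were RBCS2B (1.98 ± 0.18), CP12-2 (1.58 ± 0.19), RBCS1B (1.48 ± 0.25), PGK1 (1.27 ± 0.15) and CFBP1 (1.11 ± 0.22). No photorespiration gene was called in that interval, with 9 of 13 higher and none lower at an unadjusted p under 0.05. The unadjusted counts between 6 h and 12 h have no share of all genes beside them. The mean was highest at 12 h for 31 of the 37 members in hypocotyls and for 24 in cotyledons. All 36 tested members were higher in 12 h cotyledon library B than in A, by a median of 0.52 on the log2 scale. This spread limits the cotyledon count and the cotyledon comparison of 12 h with 6 h. For RCA, GAPA1 and GAPB 12 h library A lay below both 6 h libraries, while for RBCS1A both 12 h libraries lay above them. Times of the highest mean were not counted over all genes.

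Genes around the pathways were counted in the same fit. Of 11 Rubisco assembly and chaperonin genes, 8 rose in cotyledons and 10 in hypocotyls at 6 h and none fell, against 16.9% and 14.2% of all genes called higher, among them the chaperone gene RBCX1 (4.20 ± 0.29 and 2.47 ± 0.29) and RAF2 (1.38 ± 0.12 and 3.82 ± 0.12). The same shares of all genes stand beside the next lists. Of 9 plastid thioredoxin system genes, which activate the cycle's enzymes in the light, 6 and 8 rose and none fell, with TRXF1, a thioredoxin f, at 2.202 ± 0.13 and 4.85 ± 0.13. Of 11 starch and export genes 7 and 8 rose and none fell, with the triose phosphate translocator TPT at 1.01 ± 0.13 and 4.17 ± 0.13. The median changes of these 3 lists were 1.60, 1.67 and 1.11 in cotyledons and 2.48, 1.57 and 1.70 in hypocotyls.

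Among cytosolic counterparts of the plastid enzymes genes were called in both directions. Of 14 cytosolic glycolysis genes, 4 rose and 2 fell in cotyledons, and 4 rose and 1 fell in hypocotyls, with medians of 0.51 and 0.28. Of all genes 16.9% were called higher and 11% lower in cotyledons, and 14.2% higher and 11.9% lower in hypocotyls. The aldolase gene FBA5 had the largest cotyledon change (5.61 ± 0.19) and FBA7 the largest in hypocotyls (3.30 ± 0.17), and these neighbouring genes overlap in the annotation. Of 22 other photorespiration genes tested, such as homologues and transporters, 8 rose and 3 fell in cotyledons, and 8 rose and 0 fell in hypocotyls, beside the same shares of all genes. The peroxisomal malate dehydrogenase gene PMDH2 (4.99 ± 0.17) and the plastid glycolate and glycerate transporter gene PLGG1 (4.19 ± 0.14) led in hypocotyls, and the aminotransferase gene GGT2 (3.55 ± 0.15) in cotyledons. Of 5 further homologues of Calvin cycle genes, CP12-3 fell in cotyledons (-1.93 ± 0.17), and CFBP2 (2.29 ± 0.17) and RPI4 (1.45 ± 0.18) rose in hypocotyls.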

How the data were processed

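The submitters' processing notes name CASAVA 1.8.2, TopHat2 2.0.8, Cuffnorm and Cuffdiff 2.1.1, and the TAIR10 genome. The deposited FPKM values of 28 libraries were the main input. The authors' deposited Cuffdiff tables gave log2 fold changes and q-values, used as an alternative only. Gene names and coordinates came from the RefSeq annotation of TAIR10.1, which matched 32810 of 33557 loci by locus number.

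The 18678 genes that averaged 1 FPKM or more were tested on log2(FPKM + 1) with limma 3.58.1 (R 4.3.3; trend and robust moderation) in 1 fit over 14 groups with 14 residual degrees of freedom, and p-values were adjusted by Benjamini-Hochberg over all genes tested. A call needed an adjusted p under 0.05 and a log2 change of at least 1. An exact permutation test of 2 against 2 libraries cannot go below p = 0.333, so none was used. On simulated data built from the dark means, 61 of 61 genes changed by 3 and 74 of 78 changed by 1.5 were called in the hypocotyl 6 h comparison. In the tissue difference at 6 h the numbers were 60 of 61 and 67 of 78. Among 18678 genes, 2 unchanged ones were called in each. The simulated noise was independent between genes, whereas the members shifted together between some real replicates. At 12 h in cotyledons 36 of 36 were higher in library B, and at 3 h 0. The simulation therefore does not measure how reliable the calls of members are.

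The members and comparison lists were chosen with earlier results of these data known. Values in each library are given for RBCS genes, the 6 highest and 4 lowest changes at 6 h in either tissue, the 3 highest and 3 lowest tissue differences at 6 h or in darkness, and lone called exceptions; others are given by change or count. FPKM values carry no read counts, so no interval for counting error is given.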

Additional observations from a re-analysis of the deposited data

Results flagged for a closer look

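The following members had a light response that differed between the tissues by the test of the difference itself, given as the log2 change in hypocotyls minus that in cotyledons. At 6 h the Calvin cycle values were 3.37 for RBCS1A, 2.28 for RBCS1B, 2.65 for RBCS3B, 2.16 for RCA, 3.91 for GAPA1, 3.22 for GAPB and 3.19 for FBA1. They were 3.02 for FBA2, 3.12 for CFBP1, 1.74 for SBPASE, 1.56 for RPE, 4.25 for PRK and 1.81 for CP12-1. RPI3 was the only Calvin cycle gene with a larger rise in cotyledons at that time, at -1.70.

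The photorespiration values at 6 h were 3.49 for GOX1, 1.32 for GOX2, 2.29 for GGT1, 3.18 for GLDH1, 3.05 for SHM1, 3.40 for HPR1, 2.41 for CAT2 and 4.25 for GLU1. GLDP2 went the other way, at -1.87 at 6 h and -2.43 at 12 h, and GLYK differed by -1.85 at 3 h. The values of genes near 0 in dark hypocotyls depend on the pseudocount: RBCS1B was at 0.71 with 5 FPKM added.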

How the results depend on the processing

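Of the recomputed values, 7809 stayed on their side of the threshold, 98 lost and 103 gained a call, 100 counts moved by over 1.5 times and 0 reversed. The counts that moved are given with the main count first; causes were not tested. Without the minimum change counts went from 0 to 1 (Calvin cycle higher, cotyledon 15 min), 1 to 3 (Calvin cycle higher, cotyledon 30 min), 5 to 9 (Calvin cycle higher, cotyledon 1 h), 0 to 1 (Calvin cycle lower, cotyledon 1 h), 0 to 2 (Calvin cycle lower, cotyledon 6 h), 0 to 2 (Calvin cycle lower, cotyledon 12 h) and 2 to 9 (Calvin cycle higher, hypocotyl 30 min). In the same setting others went from 0 to 2 (Calvin cycle lower, hypocotyl 6 h), 1 to 2 (Calvin cycle lower, hypocotyl 12 h), 3 to 7 (Calvin cycle higher, tissue difference at 1 h), 1 to 2 (Calvin cycle lower, tissue difference at 3 h), 0 to 3 (Calvin cycle lower, tissue difference at 12 h), 1 to 2 (Calvin cycle higher, tissue levels in darkness) and 0 to 2 (Calvin cycle higher, tissue levels in 12 h). In the same setting others went from 0 to 3 (Calvin cycle higher, cotyledon 6 h to 12 h), 5 to 19 (Calvin cycle higher, hypocotyl 6 h to 12 h), 0 to 1 (Calvin cycle lower, hypocotyl 6 h to 12 h), 1 to 2 (photorespiration higher, cotyledon 30 min), 7 to 11 (photorespiration higher, cotyledon 1 h), 0 to 6 (photorespiration higher, hypocotyl 30 min) and 0 to 1 (photorespiration lower, hypocotyl 30 min). In the same setting others went from 1 to 3 (photorespiration higher, tissue difference at 1 h), 1 to 2 (photorespiration lower, tissue difference at 6 h), 0 to 2 (photorespiration higher, tissue levels in darkness), 0 to 1 (photorespiration higher, cotyledon 6 h to 12 h) and 0 to 7 (photorespiration higher, hypocotyl 6 h to 12 h). With quantile normalization counts went from 5 to 3 (Calvin cycle higher, cotyledon 1 h), 18 to 11 (Calvin cycle higher, cotyledon 6 h), 3 to 6 (Calvin cycle higher, tissue difference at 1 h), 7 to 3 (photorespiration higher, cotyledon 1 h), 10 to 6 (photorespiration higher, cotyledon 3 h), 13 to 8 (photorespiration higher, cotyledon 12 h) and 2 to 1 (photorespiration lower, tissue difference at 12 h). In the same setting others went from 0 to 1 (photorespiration higher, hypocotyl 6 h to 12 h). With organelle genes left out counts went from 5 to 3 (Calvin cycle higher, cotyledon 1 h), 0 to 1 (Calvin cycle lower, cotyledon 6 h), 0 to 1 (Calvin cycle lower, cotyledon 12 h), 3 to 5 (Calvin cycle higher, tissue difference at 1 h), 2 to 1 (Calvin cycle lower, tissue difference at 1 h), 1 to 0 (Calvin cycle lower, tissue difference at 3 h) and 1 to 0 (Calvin cycle lower, tissue difference at 6 h). In the same setting others went from 0 to 1 (Calvin cycle higher, tissue levels in 12 h), 13 to 8 (photorespiration higher, cotyledon 12 h) and 2 to 1 (photorespiration lower, tissue difference at 12 h). With a pseudocount of 5 FPKM counts went from 2 to 0 (Calvin cycle higher, hypocotyl 30 min), 11 to 6 (Calvin cycle higher, hypocotyl 1 h), 1 to 0 (Calvin cycle lower, hypocotyl 12 h), 2 to 4 (Calvin cycle lower, tissue difference at 1 h), 1 to 2 (Calvin cycle lower, tissue difference at 3 h), 0 to 1 (Calvin cycle lower, tissue difference at 12 h) and 1 to 0 (photorespiration higher, tissue difference at 1 h). With near-identical copies summed counts went from 2 to 1 (Calvin cycle higher, hypocotyl 30 min). In the authors' deposited table counts went from 2 to 1 (Calvin cycle higher, hypocotyl 30 min) and 0 to 2 (photorespiration higher, hypocotyl 30 min). With upper quartile scaling counts went from 3 to 5 (Calvin cycle higher, tissue difference at 1 h), 2 to 1 (photorespiration lower, tissue difference at 12 h) and 0 to 1 (photorespiration higher, hypocotyl 6 h to 12 h). With a pseudocount of 0.1 FPKM counts went from 0 to 1 (photorespiration higher, hypocotyl 30 min). Leaving out 1 library at a time gave counts of 1 to 2 (Calvin cycle higher, cotyledon 30 min), 3 to 5 (Calvin cycle higher, cotyledon 1 h), 1 to 2 (Calvin cycle higher, hypocotyl 30 min), 2 to 5 (Calvin cycle higher, tissue difference at 1 h), 0 to 2 (Calvin cycle lower, tissue difference at 1 h), 0 to 2 (Calvin cycle lower, tissue difference at 12 h). The other ranges were 0 to 1 (photorespiration higher, cotyledon 30 min), 0 to 1 (photorespiration lower, hypocotyl 1 h), 1 to 2 (photorespiration lower, tissue difference at 6 h), 1 to 2 (photorespiration lower, tissue difference at 12 h), 0 to 1 (photorespiration higher, hypocotyl 6 h to 12 h). Same-lettered libraries did not deviate together: over 91 pairs of groups the correlation ran from -0.112 to 0.163 with a median of 0.0053, and 3 exceeded 0.1. With the letter as a replicate block, photorespiration genes that rose less in hypocotyls at 1 h went from 4 to 3 without AGT1, the only count of members that changed. Each group held 2 libraries, low levels rest on few reads, and read counts are unknown.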
